A study of Mus musculus with 28 samples.

Results

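The comparison set pre-HSC I against hemogenic endothelium (HE) of the E10.5 mouse embryo, the step at which sorted endothelial cells that are able to make blood are followed by the sorted blood stem cell precursors next in line. It rests on 6 of the 28 RNA-seq libraries of the series, 3 of pre-HSC I and 3 of HE, and was described over every gene of the deposited count table. Each library held RNA of 100 sorted cells, and the cells of both groups came from E10.5 tissue labelled AGM+VU of embryos with the genotype 23GFP transgenic. As background, 23GFP is a reporter in which an intronic enhancer of Runx1 drives GFP, so cells of both groups carried the same transgene. Neither the sort gates nor the number of embryos behind a library are recorded in the labels. The series text calls the replicates biological, but nothing ties a library to its own litter. The p-values therefore measure the spread between libraries, which was estimated for each gene over all 28 libraries of the series.

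As background, the first definitive blood stem cells of the embryo arise from the wall of the dorsal aorta, in the endothelial-to-hematopoietic transition. Hemogenic endothelial cells are flat cells joined to their neighbours by VE-cadherin, and under the control of Runx1 they round up, leave the endothelial layer and enter clusters within the vessel. Pre-HSC I are cluster cells that still carry VE-cadherin but not yet CD45, the pan-leukocyte antigen, and they precede pre-HSC II, which carry both.

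Library totals were 17743220 to 20510715 counts in pre-HSC I and 17628650 to 28143388 counts in HE, with 14474 to 15923 and 14490 to 14987 genes detected. A count of 0 in a library allowed up to 0.127 to 0.151 CPM (counts per 1000000 of the scaled library) in pre-HSC I and up to 0.108 to 0.147 CPM in HE, where the upper limit is 3 counts and covers counting error only. The log2 CPM of libraries of the same group correlated across genes with r of 0.953 to 0.967, against 0.922 to 0.947 for libraries of different groups, and no pair of libraries was a duplicate. The sort gates are not recorded, so RNA levels can only be set beside the surface markers named above and do not test them. In the 3 pre-HSC I libraries Cdh5, the gene of VE-cadherin, had 262, 302 and 420 CPM, while Ptprc, the gene of CD45, had 5.66, 13.3 and 15.2 CPM. Hemoglobin reads made up 0.172% of replicate 3 of pre-HSC I and at most 0.00157% of the other 5 libraries. These are bulk samples, in which fewer cells of a type and less RNA per cell cannot be told apart.

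Many blood genes were higher and many vessel genes lower in pre-HSC I, and a part of the ribosome biogenesis, nucleotide and DNA replication genes was higher too. edgeR's quasi-likelihood test called 1049 of the 15238 genes tested at an adjusted p under 0.05, which is 6.88%, and 3243 genes, 21.3%, had an unadjusted p under 0.05. Of these, 470 rose in pre-HSC I, 3.08% of the genes tested, and 579 fell, 3.8% of the genes tested. The fitted log2 difference, always pre-HSC I minus HE, had a median of 1.56 among the rises and of -1.48 among the falls, while its median over all genes tested was 0.01. Changes of at least 8-fold were found in 133 rises and 31 falls, and 103 of the rises had a mean under 1 CPM in HE. The libraries of the groups did not overlap for 452 of the 470 rises and 565 of the 579 falls, where lack of overlap alone was found in 11% of all genes tested upward and 12.4% downward. The number of calls depended on single libraries: it was 512 without replicate 2 of pre-HSC I, 653 without replicate 2 of HE and 622 without replicate 3 of HE. In all, 397 of the called genes, 165 higher and 232 lower, kept the call whichever of the 6 libraries was left out.

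**Figure D1:**
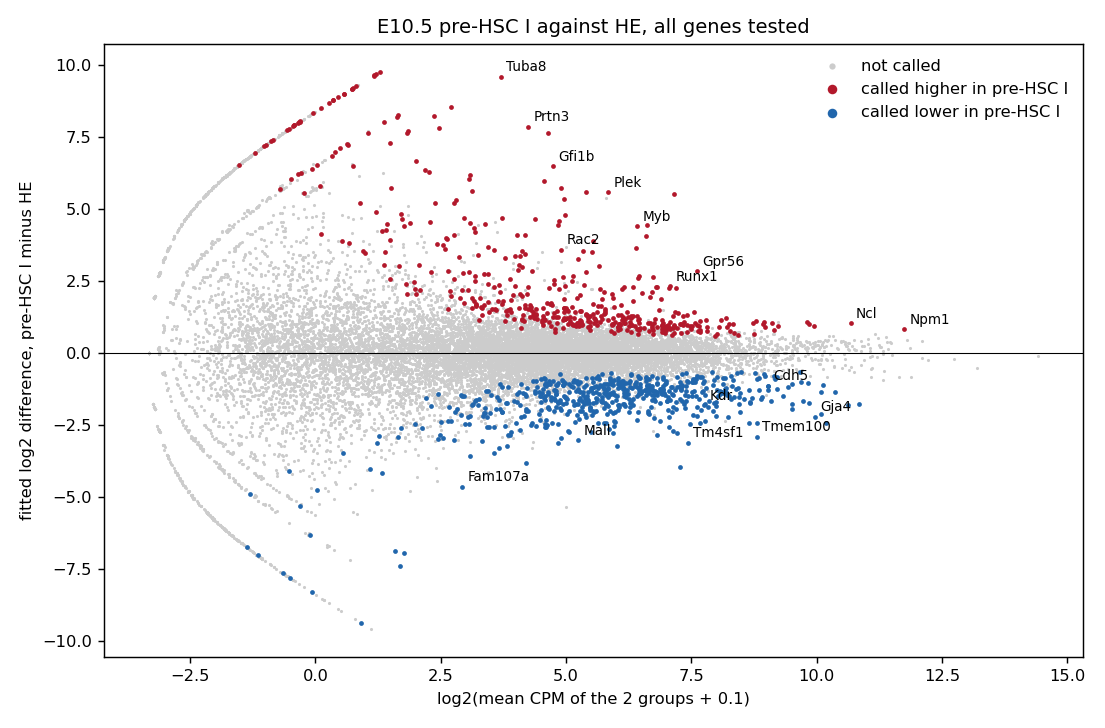
Fitted log2 difference of each gene tested, pre-HSC I minus HE, against the log2 of its mean CPM over the groups plus 0.1, with called rises in red and called falls in blue. Changes of at least 8-fold are found in 133 of the 470 rises and 31 of the 579 falls.

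Among regulators, 7 of the 28 hematopoietic transcription factors tested rose and none fell, which is 25% against the 6.88% called over all genes. The list's median log2 difference was 1.66, against 0.01 over all genes. Runx1, the factor that hemogenic endothelium needs to make blood (chr16:92601711-92826319, minus strand, mm9), had 172, 229 and 274 CPM in pre-HSC I, against 39.5, 43.0 and 52.3 CPM in HE. Every pre-HSC I library lay above every HE library, and the log2 difference was 2.32 ± 0.35 (SE, n = 3 libraries each, edgeR adjusted p = 0.000149). Myb, required for definitive blood (chr10:20844736-20880790, minus strand, mm9), had 112, 193 and 183 CPM in pre-HSC I, against 13.5, 4.18 and 5.49 CPM in HE. It rose by 4.39 ± 0.74 on the log2 scale, with an adjusted p of 0.000424.

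Gfi1b, a repressor that silences endothelial genes as blood emerges (chr2:28464970-28477502, minus strand, mm9), had 60.5, 69.2 and 28.1 CPM in pre-HSC I, against 0.072, 0.197 and 1.49 CPM in HE. It was under the limit for a count of 0 in HE replicate 1, and rose by 6.49 ± 1.08 on the log2 scale (edgeR adjusted p = 0.000561). Its paralog Gfi1 had 33.2, 53.5 and 73.6 CPM in pre-HSC I, against 11.9, 7.12 and 17.0 CPM in HE. The Gfi1 libraries did not overlap either, but the adjusted p was 0.0888 and the gene was not called. Ikzf2, the gene of the Ikaros relative Helios, rose by 1.88 ± 0.41 with an adjusted p of 0.0049. Ikzf1, the gene of Ikaros, averaged 54.2 ± 19.8 CPM in pre-HSC I and 2.49 ± 1.01 CPM in HE (SD, n = 3 each, adjusted p = 0.012), and its adjusted p was 0.0665 without HE replicate 2 and 0.05 without HE replicate 3. Without either of these HE libraries the list held 4 rises in place of 7.

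Several factors known from both blood and endothelium were not called. Gata2, needed in hemogenic endothelium and in stem cells, had 240, 193 and 193 CPM in pre-HSC I and 230, 226 and 184 CPM in HE, with a log2 difference of -0.03 ± 0.20 (edgeR adjusted p = 0.968). The libraries overlapped. Fli1, an ETS factor of both lineages, differed by -0.18 ± 0.31 and Erg, another ETS factor, by -0.13 ± 0.37, and neither was called. Tal1, a master regulator of blood specification, had a log2 difference of 0.70 ± 0.31 and Lmo2, its partner, one of 0.61 ± 0.35, with adjusted p of 0.182 and 0.334. Spi1, the gene of the myeloid factor PU.1, averaged 8.26 ± 1.43 CPM in pre-HSC I and 0.566 ± 0.236 CPM in HE (SD, n = 3 each), and at an adjusted p of 0.0625 it was not called.

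Stem cell regulators were mixed: 5 of 31 tested rose and 2 fell, with a median log2 difference of 0.40. Calls made up 22.6% of the list, against 6.88% over all genes. Leaving out 1 library left 2 rises without HE replicate 3, and 3 without replicate 2 or without replicate 3 of pre-HSC I. Gpr56, an adhesion receptor of emerging stem cells, had 323, 370 and 340 CPM in pre-HSC I, against 44.3, 40.5 and 58.8 CPM in HE, a log2 difference of 2.85 ± 0.47 (edgeR adjusted p = 0.000369). Meis1, a homeobox cofactor of stem cells, averaged 194 ± 5.95 CPM in pre-HSC I and 116 ± 31.8 CPM in HE (adjusted p = 0.0636). For Mecom, whose product Evi1 maintains stem cells, the averages were 194 ± 30.4 CPM in pre-HSC I and 365 ± 105 CPM in HE (adjusted p = 0.15). Hlf, a marker of stem cell identity, stood at 74.3 ± 26.6 CPM in pre-HSC I and 15.8 ± 5.35 CPM in HE (adjusted p = 0.0929). Meis1, Mecom and Hlf did not pass the test, although the libraries of the groups did not overlap for any of them.

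Surface and signalling genes shared by most blood cells rose in large number: 18 of 40 tested rose and none fell, 45% of the list, with a median log2 difference of 2.36. Kit, the stem cell factor receptor (chr5:75971012-76052746, plus strand, mm9), had 148, 255 and 328 CPM in pre-HSC I, against 55.3, 35.6 and 61.8 CPM in HE, and rose by 2.26 ± 0.37 (edgeR adjusted p = 0.000307). Itga2b, the gene of CD41 and an early surface sign of blood commitment, had 13.0, 39.4 and 33.8 CPM in pre-HSC I, against 3.57, 3.29 and 4.74 CPM in HE (adjusted p = 0.00021). The groups did not overlap for either gene. Ptprc rose by 3.97 ± 0.78 with an adjusted p of 0.00214, although its level in pre-HSC I stayed low, as given above. Spn, the gene of CD43, which marks pre-HSC I in sorts, averaged 38.9 ± 11.7 CPM in pre-HSC I and 4.35 ± 0.844 CPM in HE, with an adjusted p of 0.0725. Cd44, the hyaluronan receptor, and Procr, the endothelial protein C receptor, overlapped between the groups, with log2 differences of 0.15 ± 0.29 and -0.08 ± 0.46.

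Leukocyte actin signalling genes showed 9 rises and no fall among 26 tested, 34.6% of the list, with a median log2 difference of 1.17. Of these rises, Rac2, Coro1a, Vav1, Was and Dock2 were also among the 18 rises of the surface and signalling list. Rac2, the hematopoietic Rac GTPase, had 72.9, 55.9 and 35.7 CPM in pre-HSC I, against 4.00, 6.14 and 3.64 CPM in HE. It rose by 3.58 ± 0.39 (edgeR adjusted p = 3.7e-06), with no overlap. Coro1a, the gene of the leukocyte actin regulator coronin 1A, averaged 156 ± 23.4 CPM in pre-HSC I and 12.5 ± 2.43 CPM in HE, a log2 difference of 3.64 ± 0.44. Nckap1l, the gene of the hematopoietic WAVE complex subunit Hem1, had 6.01, 19 and 7.43 CPM in pre-HSC I, against 3 counts in all over the 3 HE libraries. That is a ratio of 254, with a 95% counting interval of 86.5 to 1234. Gmfg, the gene of an Arp2/3 regulator of hematopoietic cells, rose by 1.90 ± 0.28, and Cytip, the gene of a cytohesin-binding protein of leukocytes, by 6.34 ± 1.08.

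A part of the myeloid granule and enzyme genes was higher in pre-HSC I. The list's summed level was 1481, 1379 and 1205 CPM in pre-HSC I and 1008, 894 and 1082 CPM in HE. Of 24 tested, 9 rose and none fell, 37.5% of the list, with a median log2 difference of 3.03, and the count was 4 without HE replicate 3. Prtn3, the gene of neutrophil proteinase 3 (chr10:79342412-79345917, plus strand, mm9), had 55.2, 30.6 and 26.5 CPM in pre-HSC I, against 0.108, 0.197 and 0.176 CPM in HE. It rose by 7.85 ± 0.67 with the smallest adjusted p of the 15 largest rises, 2.59e-07 by edgeR. Mpo, the gene of myeloperoxidase, had 65.6, 77.5 and 39.3 CPM in pre-HSC I, against 1.48, 0.344 and 2.59 CPM in HE (log2 difference 5.35 ± 0.97, adjusted p = 0.000909). Neither gene overlapped between the groups. Alox5ap, needed for leukotriene synthesis, rose by 2.12 ± 0.40. Macrophage markers as a list showed 2 rises, Csf1r and Lyz2, among 8 genes tested, 25% of the list. The macrophage list's summed level was 30.6 to 48.5 CPM in pre-HSC I and 13.5 to 14.5 CPM in HE. Both macrophage calls were lost in runs without 1 library, with adjusted p up to 0.113 for Csf1r and 0.0897 for Lyz2, and the reads of Lyz2 may be shared with its near copy Lyz1.

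Cytokine and chemokine receptors changed in both directions: 7 of 28 tested rose and 3 fell, with a median log2 difference of 0.56. Calls made up 35.7% of the list, against 6.88% over all genes. Csf3r, the G-CSF receptor, had 16.8, 19.9 and 19.7 CPM in pre-HSC I, against 2.45, 4.52 and 1.54 CPM in HE, and rose by 2.73 ± 0.40 (edgeR adjusted p = 0.000133). Flt3, the receptor of multipotent progenitors, had 3.33, 9.90 and 4.85 CPM in pre-HSC I, against 1 count over the 3 HE libraries. The members that fell were Il6st, the shared signalling chain of the IL-6 family, Il2rg, the common gamma chain, and Cxcr4, the CXCL12 receptor. Without replicate 2 of pre-HSC I the list had 4 rises and no falls, and it had 1 fall without HE replicate 2, HE replicate 3 or replicate 1 of pre-HSC I. Among 15 lymphoid-associated genes, 2 rose, Flt3 and Sla, and 2 fell, Notch1 and Ets1, 26.7% of the list.

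Platelet and megakaryocyte genes overlapped with the blood lists: 5 of 17 markers rose, among them Itga2b, Itgb3, Tubb1 and Plek, and none fell, 29.4% of the list. Plek, the gene of the platelet protein kinase C substrate pleckstrin, had 73.7, 153 and 111 CPM in pre-HSC I, against 3.57, 2.01 and 1.40 CPM in HE (log2 difference 5.58 ± 0.61, edgeR adjusted p = 3.87e-06). Itgb3, the beta partner of CD41, averaged 115 ± 46.2 CPM in pre-HSC I and 24.6 ± 6.64 CPM in HE, and rose by 2.22 ± 0.35. The summed level of the list was 473, 659 and 753 CPM in pre-HSC I and 482, 538 and 478 CPM in HE, so it overlapped between the groups.

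Erythroid markers showed 4 rises among 14 genes tested, Hbb-bh1, Hbb-y, Gata1 and Car2, 28.6% of the list. Car2, the gene of carbonic anhydrase 2, had 275, 174 and 109 CPM in pre-HSC I, against 6.27, 12 and 7.46 CPM in HE (log2 difference 4.44 ± 0.59, edgeR adjusted p = 3.57e-05). The embryonic globin gene Hbb-y had 11.9, 5.14 and 814 CPM in pre-HSC I and 2.66, 8.01 and 7.72 CPM in HE. That rise rested on replicate 3 of pre-HSC I, without which the adjusted p was 0.927 for Hbb-y and 1 for Hbb-bh1. It was 0.119 to 0.157 for both without any one HE library, and reads of near-identical globin genes may be shared. Gata1, the erythroid and megakaryocyte factor, had 6.26, 7.19 and 4.35 CPM in pre-HSC I and 1 count over the 3 HE libraries, with an adjusted p of 0.0191 that was up to 0.0858 when 1 library was left out. The list held 2 rises without replicate 3 of pre-HSC I and 1 without any one HE library. Its summed level was 366, 248 and 1603 CPM in pre-HSC I and 58.2, 74.2 and 70.3 CPM in HE.

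The 15 largest rises among genes with at least 10 CPM in pre-HSC I all kept their call whichever library was left out. Beyond those described, they included Tuba8, an alpha-tubulin gene, with 28.6, 33.9 and 14.8 CPM in pre-HSC I against 2 counts over the 3 HE libraries, a ratio of 895 with a 95% counting interval of 247 to 7400. Tespa1, the gene of a T cell signalling adaptor, gave a ratio of 441 (95% counting interval 122 to 3651) and Slc35d3, needed for platelet dense granules, one of 368 (102 to 3047), each against 2 HE counts. Rgs18, a brake on G protein signalling in platelets, had 49.5, 72.6 and 25.6 CPM in pre-HSC I, against 0.18, 0.442 and 0.132 CPM in HE (edgeR adjusted p = 2.87e-05). Cd200r1, the gene of an inhibitory receptor of myeloid cells, averaged 58.6 ± 10.7 CPM in pre-HSC I and 1.06 ± 1.67 CPM in HE. Fcer1g, the shared signalling chain of Fc receptors, averaged 46.0 ± 20.2 CPM in pre-HSC I and 0.727 ± 0.595 CPM in HE. The remaining members were Treml2, Prkcq, Rnase6 and Tnik, with log2 differences of 6.17, 6.02, 5.63 and 5.29. Prkcq encodes a protein kinase C best known in T cells and platelets, and Rnase6 an antimicrobial ribonuclease.

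**Figure D2:**
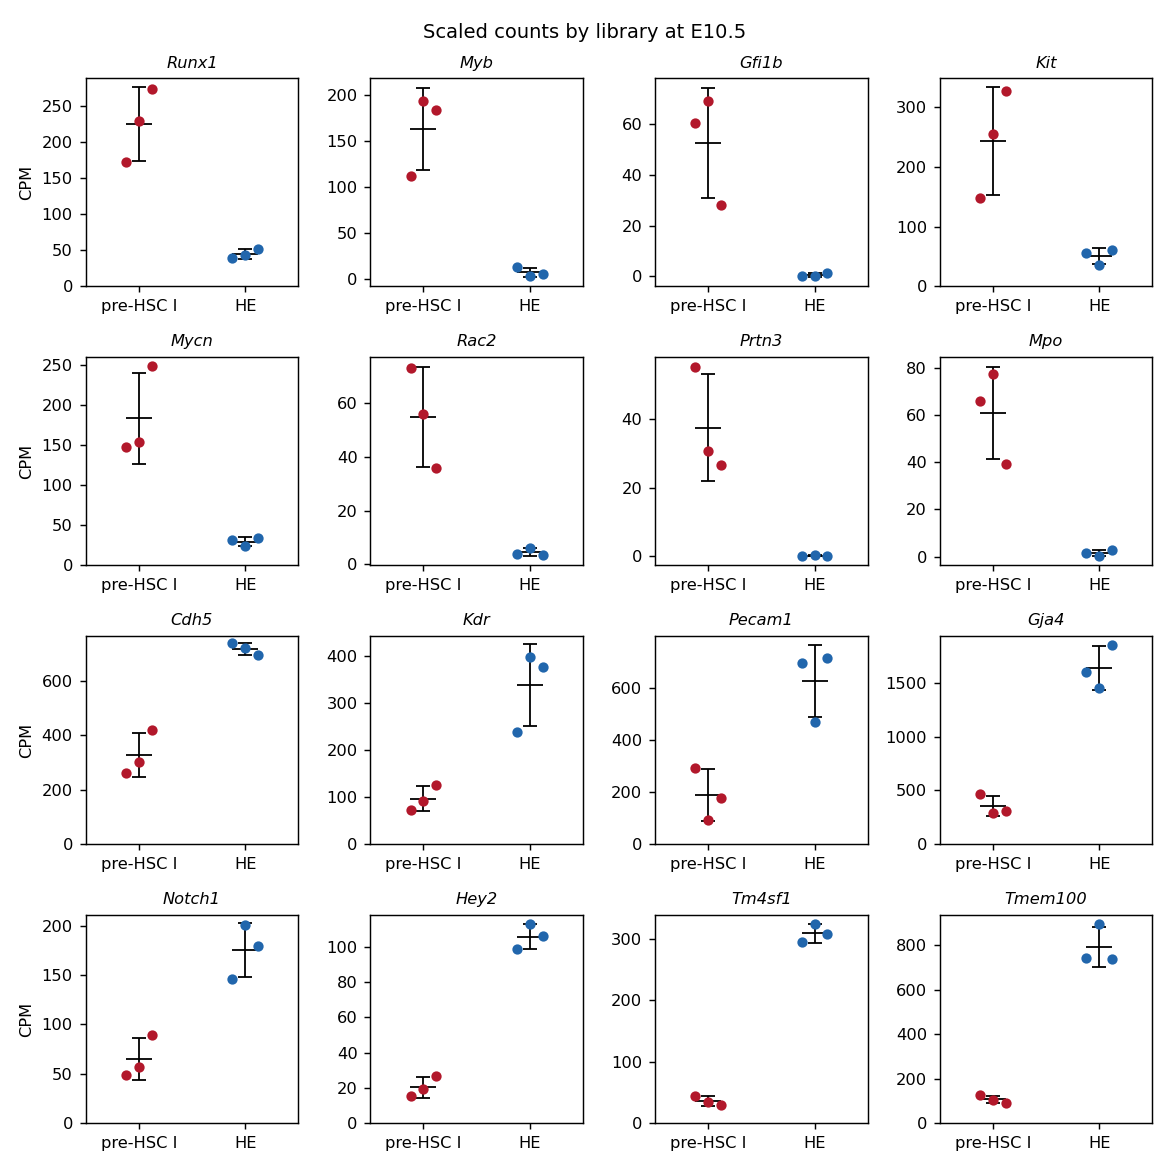
CPM of 16 genes in each pre-HSC I library (red, left) and each HE library (blue, right), with the mean and SD of the 3 libraries in black. The groups do not overlap for any gene shown; Runx1 lies between 172 and 274 CPM in pre-HSC I and between 39.5 and 52.3 CPM in HE, and Tm4sf1 between 29.4 and 44.4 CPM in pre-HSC I and between 295 and 325 CPM in HE.

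Most endothelial identity genes fell but were still detected. Of 30 tested, 20 fell and none rose, 66.7% of the list, and the median log2 difference was -1.36. The count was 13 without replicate 2 of pre-HSC I. Kdr, the gene of VEGF receptor 2 (chr5:76329299-76374453, minus strand, mm9), had 71.4, 91.7 and 124 CPM in pre-HSC I, against 237, 398 and 375 CPM in HE. It fell by 1.81 on the log2 scale (SE 0.27, edgeR adjusted p = 0.000137). Pecam1, the gene of the junctional adhesion molecule CD31, had 293, 93.4 and 178 CPM in pre-HSC I, against 696, 468 and 714 CPM in HE, a log2 difference of -1.73 ± 0.33. Tek, the angiopoietin receptor Tie2, averaged 197 ± 40.8 CPM in pre-HSC I and 515 ± 134 CPM in HE (adjusted p = 0.000335).

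Cdh5 fell too: beside the pre-HSC I values given above, HE had 739, 721 and 696 CPM. The log2 difference was -1.13 ± 0.29 with an edgeR adjusted p of 0.0157. That p was 0.0691 without replicate 1 and 0.0814 without replicate 2 of pre-HSC I. Ecscr, an endothelial regulator of VEGF signalling, averaged 261 ± 90.1 CPM in pre-HSC I and 824 ± 39.2 CPM in HE, and Icam2, an endothelial ligand for leukocyte integrins, 161 ± 60.4 CPM in pre-HSC I and 541 ± 50 CPM in HE. Both fell, each with an adjusted p of 0.000137.

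Arterial and Notch genes had a median log2 difference of -1.76, with 14 of 27 tested lower and none higher, 51.9% of the list. Gja4, the gene of the arterial connexin 37 (chr4:126988664-126991283, minus strand, mm9), had 463, 291 and 313 CPM in pre-HSC I, against 1607, 1451 and 1860 CPM in HE. It fell by 2.21 (SE 0.36, edgeR adjusted p = 0.00036), with no overlap. Jag1, a Notch ligand needed for blood formation in the aorta, had 297, 363 and 253 CPM in pre-HSC I, against 1375, 1236 and 862 CPM in HE. Notch1, the receptor required for definitive stem cells, averaged 65.1 ± 21.5 CPM in pre-HSC I and 176 ± 27.4 CPM in HE, a log2 difference of -1.43 ± 0.26. Nrp1, a co-receptor for VEGF and semaphorins, fell by 1.66 with an adjusted p of 0.00489.

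Several calls within the arterial list depended on single libraries. Its count was 7 without replicate 1 or without replicate 2 of pre-HSC I, 9 without replicate 3 of pre-HSC I or HE replicate 3, and 8 without HE replicate 2. Hey2, a Notch target of arterial cells, had 15, 19.1 and 26.6 CPM in pre-HSC I, against 98.7, 113 and 106 CPM in HE. The groups did not overlap and the log2 difference was -2.39 ± 0.69, but the edgeR adjusted p of 0.0334 was 0.0543 to 0.125 when any of the 6 libraries was left out. Gja5, the gene of connexin 40, averaged 92.1 ± 19.2 CPM in pre-HSC I and 414 ± 39.4 CPM in HE (adjusted p = 0.0146), and its adjusted p was 0.0569 without replicate 1 and 0.0554 without replicate 3 of pre-HSC I. Dll4, the main arterial Notch ligand, averaged 36.2 ± 13.8 CPM in pre-HSC I and 103 ± 28.1 CPM in HE, with an adjusted p of 0.177. Hey1, another Notch target, averaged 36.6 ± 11.1 CPM in pre-HSC I and 89.6 ± 34.2 CPM in HE, with an adjusted p of 0.111.

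Of 12 venous and lymphatic genes tested 5 fell, 41.7% of the list against 6.88% over all genes. Their median log2 difference was -2.06, and 3 fell without HE replicate 1 or replicate 2 of pre-HSC I. Dab2, an endocytic adaptor of endothelium, had 12.6, 15.4 and 18.3 CPM in pre-HSC I, against 118, 108 and 93.5 CPM in HE (log2 difference -2.79 ± 0.42, edgeR adjusted p = 0.000137). Flt4, the gene of VEGF receptor 3, fell by 1.85 and Stab1, the gene of the scavenger receptor stabilin 1, by 2.06. Endothelial transcription factors moved less as a list, with 5 falls and 1 rise among 23 tested (26.1%) and a median of -0.79. Ets1, an ETS factor of endothelium and lymphocytes, averaged 102 ± 19 CPM in pre-HSC I and 262 ± 26.1 CPM in HE, and its relative Elk3 119 ± 7.85 CPM in pre-HSC I and 300 ± 15.6 CPM in HE. Both kept their call whichever library was left out, while the list held 2 falls without HE replicate 3 or replicate 1 or 3 of pre-HSC I and 3 falls without each of the other libraries. Its rise, Mef2c, was lost without HE replicate 1 or 2 and without replicate 2 or 3 of pre-HSC I.

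The 15 largest falls among genes with at least 10 CPM in HE were led by Fam107a, the gene of an actin-binding stress protein. It had 0.0505, 0.619 and 1.06 CPM in pre-HSC I, against 10.6, 12.2 and 20.5 CPM in HE (log2 difference -4.63 ± 0.99, edgeR adjusted p = 0.00384). Tm4sf1, a tetraspan membrane protein gene of angiogenic endothelium, had 44.4, 33.8 and 29.4 CPM in pre-HSC I, against 295, 325 and 309 CPM in HE, and fell by 3.11 (SE 0.62, adjusted p = 0.00198). Tmem100, an endothelial gene downstream of ALK1 signalling, had 124, 104 and 90.9 CPM in pre-HSC I, against 741, 896 and 739 CPM in HE. It fell by 2.90 (SE 0.58, adjusted p = 0.00212). The groups of all 15 genes did not overlap, by the rule that chose them. Plat, the gene of tissue plasminogen activator, averaged 6.87 ± 3.94 CPM in pre-HSC I and 52.5 ± 6.28 CPM in HE. Mall, a membrane raft proteolipid gene, averaged 8.29 ± 3.05 CPM in pre-HSC I and 67.2 ± 4.94 CPM in HE, and Pmp22, the gene of peripheral myelin protein 22, 12.6 ± 7.42 CPM in pre-HSC I and 116 ± 29.1 CPM in HE. Stx1a, Fkbp14 and Rbms3 fell by 3.47, 3.24 and 3.06. Frk, Sulf1, Pde8a, Clec1a, Plcd1 and Mal were called too, but each lost its call without at least 1 of the libraries, with adjusted p up to 0.103, 0.0569, 0.126, 0.125, 0.0588 and 0.182.

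Promoter windows are shown for genes at the extremes of the comparison, to set the letters upstream of a start beside the size of the change. They are the 250 bases before the first listed start in RefSeq (GRCm38.p6, a later build than the mm9 of the count table), for 2 of the largest rises and 2 of the largest falls. Tuba8 is at chr6:121210484-121210733 on the plus strand and Prtn3 at chr10:79879417-79879666 on the plus strand. Tm4sf1 is at chr3:57301989-57302238 and Fam107a at chr14:8317608-8317857, both on the minus strand. Capitals mark an E-box CACGTG in Tuba8, the RUNX motif TGTGGT read on the other strand in Tm4sf1, and the RBPJ motif TGGGAA in Fam107a. Prtn3 holds none of these 3 motifs.
Tuba8: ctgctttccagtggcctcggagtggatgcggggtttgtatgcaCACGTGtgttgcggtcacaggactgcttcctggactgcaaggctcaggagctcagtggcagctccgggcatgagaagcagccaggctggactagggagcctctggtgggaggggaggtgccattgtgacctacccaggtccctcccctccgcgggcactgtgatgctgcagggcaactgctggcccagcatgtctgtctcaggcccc
Prtn3: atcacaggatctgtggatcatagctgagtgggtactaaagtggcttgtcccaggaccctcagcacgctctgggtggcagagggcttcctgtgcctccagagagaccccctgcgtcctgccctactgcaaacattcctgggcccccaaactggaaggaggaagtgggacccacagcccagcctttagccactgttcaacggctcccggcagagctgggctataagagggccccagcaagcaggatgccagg
Tm4sf1: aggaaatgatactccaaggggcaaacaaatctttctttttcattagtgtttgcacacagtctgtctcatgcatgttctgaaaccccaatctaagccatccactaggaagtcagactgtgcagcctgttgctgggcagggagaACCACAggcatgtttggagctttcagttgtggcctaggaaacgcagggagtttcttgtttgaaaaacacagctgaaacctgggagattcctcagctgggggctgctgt
Fam107a: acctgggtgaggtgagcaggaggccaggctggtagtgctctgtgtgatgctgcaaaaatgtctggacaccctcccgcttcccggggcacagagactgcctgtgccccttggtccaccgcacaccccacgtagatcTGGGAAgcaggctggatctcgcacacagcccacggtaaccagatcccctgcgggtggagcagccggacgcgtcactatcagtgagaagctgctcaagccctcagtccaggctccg
Searched on both strands, with matches of different motifs free to overlap, TGTGGT was found in 10.8% of the 11907 windows matched to genes tested, in 10.9% of the 375 windows of called rises and in 9.61% of the 437 windows of called falls. The E-box CACGTG was found in 7.47% of the windows of rises and 8.01% of those of falls, against 8.25% of all. TGGGAA was found in 19.2% of the windows of rises and 21.5% of those of falls, against 20.7% of all. In all 6 motifs were searched, and the other 3 were not marked in the windows printed. The ETS core CCGGAA was found in 18.7% of the windows of rises and 16% of those of falls, against 20.5% of all. The GATA motif AGATAA was found in 4.8% of the windows of rises and 3.89% of those of falls, against 6.31% of all. The KLF motif CCACCC was found in 34.4% of the windows of rises and 39.1% of those of falls, against 33.2% of all. None of these shares was tested. RefSeq windows were matched for 9 of the 15 largest rises, none with TGTGGT, and for 11 of the 15 largest falls, of which Tm4sf1, Pmp22 and Mal held it. A match describes letters in a window and not a bound site.

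Many genes that hold the endothelial layer together fell with endothelial identity. Among adherens, tight and gap junction genes 14 of 30 tested fell and none rose, 46.7% of the list, with a median log2 difference of -1.13. Of these falls, Cdh5 and Esam were also counted as endothelial identity genes, and Gja4 and Gja5 as arterial genes. Jup, the gene of plakoglobin, had 34.9, 27.6 and 30.4 CPM in pre-HSC I, against 84.1, 86.3 and 119 CPM in HE (log2 difference -1.64 ± 0.22, edgeR adjusted p = 3.41e-05). Ctnna1, the gene of alpha-catenin, which ties cadherins to actin, averaged 169 ± 14.7 CPM in pre-HSC I and 404 ± 54.1 CPM in HE. Amotl1, a junctional angiomotin that holds YAP, averaged 18.4 ± 3.23 CPM in pre-HSC I and 106 ± 11.6 CPM in HE, and fell by 2.53. The libraries of the groups did not overlap for any of the 3.

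Basement membrane and matrix genes showed 14 falls and no rise among 38 tested, 36.8% of the list, with a median log2 difference of -1.28. Sparc, a collagen-binding matrix protein gene, had 571, 282 and 382 CPM in pre-HSC I, against 1689, 1556 and 2068 CPM in HE, and fell by 2.10 (SE 0.27, edgeR adjusted p = 2.59e-05). Nid1, the gene of the basement membrane linker nidogen 1, averaged 112 ± 33.2 CPM in pre-HSC I and 398 ± 52.0 CPM in HE. Col4a2, the gene of a collagen IV chain, averaged 199 ± 53.6 CPM in pre-HSC I and 474 ± 52.2 CPM in HE, and Fbn1, the gene of fibrillin 1, 74.2 ± 20.8 CPM in pre-HSC I and 254 ± 83.9 CPM in HE. These 4 genes kept their call whichever library was left out. The list's count was 7 without replicate 2 of pre-HSC I and 8 without its replicate 1 or HE replicate 3.

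Integrin subunits changed in opposite directions, 4 higher and 4 lower among 20 tested, 40% of the list against 6.88% over all genes. The rises were Itga2b, Itga4, Itgam and Itgb3, subunits known from platelets and leukocytes, and the falls Itga1, Itga3, Itgav and Itgb1. Itga4, whose product binds VCAM1, had 111, 204 and 237 CPM in pre-HSC I, against 32.0, 48.3 and 33.9 CPM in HE (log2 difference 2.27 ± 0.39, edgeR adjusted p = 0.00052). Itga3, a laminin receptor subunit, had 4.24, 8.52 and 5.82 CPM in pre-HSC I, against 16.2, 15.2 and 15 CPM in HE. Its adjusted p was 0.00872, and 0.0537 without replicate 1 of pre-HSC I. No fall was called without that library, 1 without replicate 2, and 2 without replicate 3 of pre-HSC I or without HE replicate 2 or 3.

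Actomyosin and focal adhesion genes held 12 falls and no rise among 34 tested, 35.3% of the list, with a median log2 difference of -0.67. Cald1, the gene of the actin and myosin regulator caldesmon, had 66.8, 60.1 and 85.1 CPM in pre-HSC I, against 276, 363 and 324 CPM in HE. It fell by 2.18 (SE 0.24, edgeR adjusted p = 3.7e-06). Tpm4, a tropomyosin gene, averaged 304 ± 63.8 CPM in pre-HSC I and 738 ± 79.0 CPM in HE, and Parva, the gene of the integrin-linked adaptor alpha-parvin, 29.2 ± 6.84 CPM in pre-HSC I and 103 ± 8.83 CPM in HE. The count was 4 without replicate 3 and 5 without replicate 2 of pre-HSC I, and 7 without HE replicate 3. Targets and partners of YAP showed 5 falls among 20 tested, 25% of the list. They included Cyr61, a secreted matricellular YAP target, at 35.6 ± 8.43 CPM in pre-HSC I and 125 ± 10.9 CPM in HE, and Tead1, the DNA-binding partner of YAP, at 12.2 ± 1.30 CPM in pre-HSC I and 47.4 ± 9.26 CPM in HE.

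**Figure D3:**
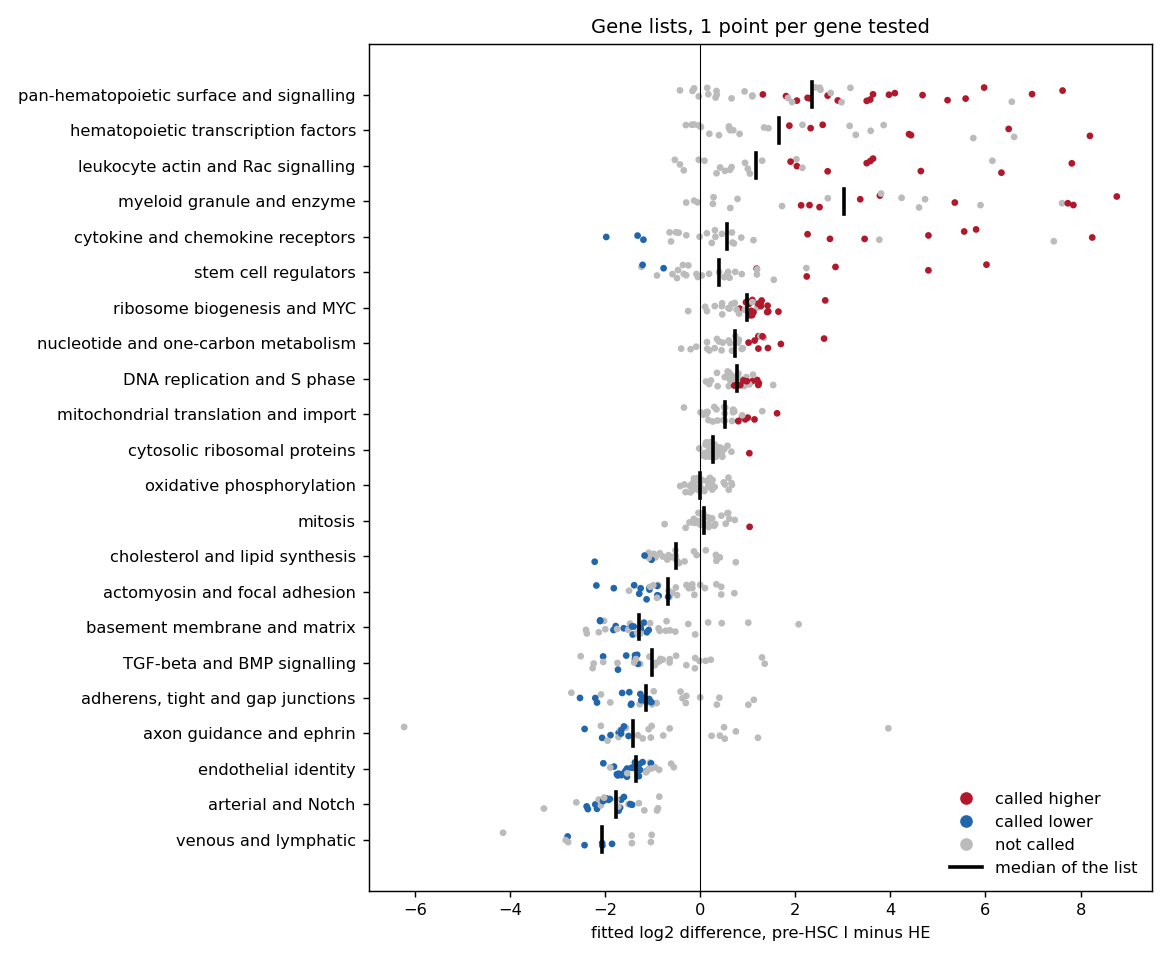
Fitted log2 difference, pre-HSC I minus HE, of each gene tested in 22 gene lists, with called rises in red, called falls in blue and a black bar at the median of each list. Medians reach 3.03 among the blood lists, with stem cell regulators at 0.40 and cytokine and chemokine receptors at 0.56. Ribosome biogenesis and MYC is at 1.00, DNA replication at 0.77 and oxidative phosphorylation at 0.01. Medians of the vessel lists go down to -2.06.

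In the ribosome biogenesis and MYC list 18 of 35 genes tested rose and none fell, 51.4% of the list, with a median log2 difference of 1.00, and 12 to 18 rises were called when 1 library was left out. Mycn, the N-MYC gene (chr12:12942899-12948642, minus strand, mm9), had 148, 154 and 249 CPM in pre-HSC I, against 31.2, 24 and 33.7 CPM in HE, and rose by 2.63 ± 0.35 (edgeR adjusted p = 3.41e-05). Myc averaged 121 ± 26.7 CPM in pre-HSC I and 52.8 ± 10.2 CPM in HE without overlap, but at an adjusted p of 0.104 it was not called. Gnl3, the gene of nucleostemin, had 296, 266 and 257 CPM in pre-HSC I, against 133, 87.5 and 86.0 CPM in HE. Ncl, the gene of nucleolin, averaged 2196 ± 252 CPM in pre-HSC I and 1078 ± 180 CPM in HE, and Dkc1, the pseudouridine synthase of small nucleolar particles, 279 ± 20.9 CPM in pre-HSC I and 131 ± 26.4 CPM in HE. The called members also included Npm1, Fbl, Nop56, Nop58 and Polr1b.

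Of 42 cytosolic ribosomal protein genes tested, 1 rose, Rps2, and none fell, 2.38% of the list against the 6.88% called over all genes, while 41 had a log2 difference above 0. The list's median log2 difference was 0.26, and -0.06 without replicate 1 of pre-HSC I, and reads of ribosomal protein genes may be shared with processed copies. Rps2 averaged 738 ± 139 CPM in pre-HSC I and 360 ± 115 CPM in HE (edgeR adjusted p = 0.0389), and lost its call in the runs without replicate 2 or 3 of pre-HSC I or without any HE library, with adjusted p up to 0.201. Translation factors and tRNA synthetases had 2 rises among 33 tested, Eif3b and Mars, 6.06% of the list and near the 6.88% over all genes, and none without HE replicate 2 or replicate 2 of pre-HSC I. In the mitochondrial translation and import list 6 of 30 rose, 20% of the list, with a median of 0.52. The rises numbered 1 without HE replicate 2, 3 without HE replicate 3 and 2 without replicate 2 of pre-HSC I. C1qbp, a mitochondrial matrix protein gene needed for mitochondrial translation, kept its call in every such run, at 75.4 ± 31.9 CPM in pre-HSC I and 24.6 ± 9.24 CPM in HE.

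Nucleotide and one-carbon genes showed 8 rises and no fall among 29 tested, 27.6% of the list, with a median log2 difference of 0.74. Phgdh, which opens serine synthesis, had 176, 137 and 134 CPM in pre-HSC I, against 45.2, 14.4 and 13.6 CPM in HE, and rose by 2.61 ± 0.42 (edgeR adjusted p = 0.000279). Mthfd1l, a mitochondrial folate enzyme gene, averaged 70.9 ± 21.9 CPM in pre-HSC I and 21.9 ± 4.11 CPM in HE, and Atic, of purine synthesis, 85.3 ± 10.1 CPM in pre-HSC I and 36.5 ± 5.06 CPM in HE. The count was 4 without HE replicate 3, and 5 without HE replicate 2 or replicate 1 of pre-HSC I.

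DNA replication genes held more calls than mitosis genes, a contrast that was not tested itself. All 34 DNA replication and S phase genes tested had a log2 difference above 0, where 7723 of all 15238 genes did, and 13 of the 34 were called, with a median of 0.77. Mcm3, a subunit of the replicative helicase, had 243, 261 and 261 CPM in pre-HSC I, against 154, 137 and 167 CPM in HE (log2 difference 0.74 ± 0.17, edgeR adjusted p = 0.00685). The groups did not overlap, and Mcm3 kept its call whichever library was left out. The list's count was more fragile, at 3 without replicate 2 of pre-HSC I or HE replicate 3 and 4 without replicate 3 of pre-HSC I or HE replicate 2. Of 32 mitosis genes 1 rose, Ccna2, and none fell, 3.12% of the list against 6.88% over all genes, with a median of 0.08. Ccna2 is the gene of cyclin A2, which also acts in S phase. Ccna2 averaged 96.6 ± 18 CPM in pre-HSC I and 47.0 ± 8.44 CPM in HE (adjusted p = 0.0137), and lost its call in the runs without replicate 2 or 3 of either group, with adjusted p up to 0.0719. Without replicate 1 of pre-HSC I the list held 3 rises. Mki67, a general marker of cycling cells, averaged 428 ± 140 CPM in pre-HSC I and 258 ± 44.8 CPM in HE, with an adjusted p of 0.111. Among 14 D cyclin, Cdk4/6 and inhibitor genes 1 rose, Cdk6, 7.14% of the list and near the share over all genes. Cdk6 averaged 4.46 ± 0.954 CPM in pre-HSC I and 0.538 ± 0.452 CPM in HE. Its adjusted p was up to 0.109 when 1 library was left out.

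None of the 39 oxidative phosphorylation genes tested was called by edgeR, 3 had an unadjusted p under 0.05, and neither DESeq2 nor limma voom called any, while 1 was called, as a rise, without HE replicate 1. Their median log2 difference was 0.01, and by limma voom it was -0.17. Of 30 glycolysis and hypoxia genes, 1 rose and 1 fell, 6.67% of the list, near the share over all genes. The rise was Hk2, the gene of the inducible hexokinase 2, with 166, 127 and 153 CPM in pre-HSC I, against 34.4, 23.7 and 45.8 CPM in HE (log2 difference 2.10 ± 0.27, edgeR adjusted p = 2.67e-05). The groups did not overlap for Hk2. The fall was Vegfa, the gene of the main endothelial growth factor, at 4.67 ± 2.32 CPM in pre-HSC I and 14.2 ± 4.99 CPM in HE (adjusted p = 0.0487), a call lost without any HE library and without replicate 1 or 2 of pre-HSC I. Gapdh, a glycolytic enzyme gene, averaged 564 ± 34.4 CPM in pre-HSC I and 386 ± 92.6 CPM in HE and was not called (adjusted p = 0.13). In the cholesterol and lipid list 3 of 26 fell, 11.5% against 6.88% over all genes, with 5 falls without replicate 1 of pre-HSC I. Among them Cyp51, a sterol demethylase gene, averaged 48.5 ± 4.41 CPM in pre-HSC I and 98.5 ± 5.47 CPM in HE, and Nsdhl, a later enzyme of the same pathway, 41.6 ± 8.63 CPM in pre-HSC I and 93.5 ± 8.44 CPM in HE.

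The signalling lists of vessels leaned downward with a few exceptions. In the VEGF, angiopoietin and FGF list 8 of 31 tested fell and 2 rose, 32.3% of the list, with a median log2 difference of -0.62. Of these falls, Kdr, Flt1, Tek, Flt4, Nrp1 and Nrp2 were also counted in the endothelial identity, arterial or venous lists. Dusp6, an ERK phosphatase induced by FGF and VEGF signals, had 154, 129 and 158 CPM in pre-HSC I, against 423, 370 and 378 CPM in HE (log2 difference -1.41 ± 0.22, edgeR adjusted p = 0.00018). Angpt1, the Tie2 ligand, went the other way, at 220 ± 22.7 CPM in pre-HSC I and 46.6 ± 13.5 CPM in HE. Its adjusted p was 0.0136, and 0.0803 without HE replicate 3 and 0.0501 without replicate 2 of pre-HSC I. Neither of the 2 rises was called in those runs, and 1 was without HE replicate 2.

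BMP and TGF-beta genes had 7 falls and no rise among 32 tested, 21.9% of the list, with a median log2 difference of -1.01. The falls numbered 2 without replicate 2 of pre-HSC I, 3 without HE replicate 3 and 4 without HE replicate 1. Id3, a BMP target and inhibitor of helix-loop-helix factors, had 727, 279 and 278 CPM in pre-HSC I, against 1779, 1140 and 1336 CPM in HE, and fell by 1.73 (SE 0.33, edgeR adjusted p = 0.00138). Acvrl1, the gene of the endothelial BMP receptor ALK1, averaged 18.5 ± 10.9 CPM in pre-HSC I and 76.1 ± 24.5 CPM in HE. Guidance genes had 8 falls and no rise among 28 tested, 28.6% of the list, and 5 falls without replicate 2 of pre-HSC I. Of these genes, Efnb2, Nrp1 and Unc5b were also counted as arterial falls, and Nrp2 as a venous fall. Efna1, the gene of ephrin A1, had 152, 105 and 118 CPM in pre-HSC I, against 622, 704 and 694 CPM in HE (adjusted p = 0.000435). Plxnd1, the gene of the semaphorin receptor plexin D1, averaged 137 ± 30.3 CPM in pre-HSC I and 389 ± 9.90 CPM in HE. Among 24 blood flow response genes, 8 fell and 1 rose, Ptgs1, the gene of cyclooxygenase 1 in platelets, at 74.8 ± 24.2 CPM in pre-HSC I and 6.39 ± 3.55 CPM in HE. These blood flow calls were 37.5% of the list, and the rises numbered 2 without HE replicate 1. Cav2, a caveolin gene, averaged 27.3 ± 14.8 CPM in pre-HSC I and 196 ± 21.2 CPM in HE, and Ece1, the endothelin-converting enzyme gene, 155 ± 6.01 CPM in pre-HSC I and 406 ± 98.8 CPM in HE.

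In the Wnt list 6 of 32 tested fell and 2 rose, 25% of the list. Sfrp2, a secreted Wnt modulator gene, had 136, 116 and 153 CPM in pre-HSC I, against 36.9, 19.9 and 25.3 CPM in HE, and rose by 2.30 ± 0.49 (edgeR adjusted p = 0.00413). Tcf7l1 and Tcf7l2, nuclear partners of beta-catenin, averaged 13.3 ± 2.34 and 85.2 ± 14.2 CPM in pre-HSC I and 53.3 ± 9.09 and 158 ± 29.6 CPM in HE, and both fell. The 6 falls were 2 without HE replicate 1, HE replicate 3 or replicate 1 or 2 of pre-HSC I and 3 without its replicate 3, and 1 rise was left without any HE library or without replicate 2 of pre-HSC I. Of 38 interferon and inflammatory genes 1 rose and 2 fell, 7.89% of the list, near the share over all genes. The rise was Ifitm1, an interferon-induced transmembrane protein gene, at 83.0 ± 42.2 CPM in pre-HSC I and 22.7 ± 5.72 CPM in HE, with reads that related Ifitm genes may share. The falls, Nfkbia and Rela of the NF-kappa B pathway, numbered 1 without HE replicate 1, HE replicate 2 or replicate 3 of pre-HSC I, and none without HE replicate 3 or replicate 2 of pre-HSC I.

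In the list of polycomb, DNA methylation and chromatin genes 4 of 32 rose and none fell, 12.5% of the list. Over all genes 6.88% were called and 3.08% rose. The libraries of the groups did not overlap for 9 members upward and 4 downward. The rises numbered 2 without replicate 2 and 8 without replicate 1 of pre-HSC I. Dnmt3b, a de novo DNA methyltransferase gene (chr2:153475185-153513466, plus strand, mm9), had 137, 229 and 194 CPM in pre-HSC I, against 37.3, 35.1 and 41.8 CPM in HE. It rose by 2.29 ± 0.23 (edgeR adjusted p = 1.57e-06), with no overlap. Hells, the gene of a helicase that helps DNA methylation, averaged 152 ± 25.6 CPM in pre-HSC I and 66.7 ± 17.3 CPM in HE, and rose by 1.19 ± 0.24. Dnmt1, the maintenance methyltransferase gene, was also called, at 188 ± 40.1 CPM in pre-HSC I and 97.3 ± 13.9 CPM in HE, and its adjusted p of 0.0119 was 0.0623 without HE replicate 2, 0.0618 without HE replicate 3 and 0.0769 without replicate 2 of pre-HSC I.

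Calls among markers of other tissues differed by list, and the part of these markers in the results above was not tested. edgeR called 16.7% of the cardiac, 14.3% of the mesonephros and 28.6% of the germ cell markers tested. It called 50% of the 2 mast cell markers and none of the mesenchyme, neural or endoderm markers, against 6.88% over all genes. None of the 18 mesenchyme and smooth muscle markers tested was called by edgeR, 2 had an unadjusted p under 0.05, and limma voom called 1 and DESeq2 none. Their summed level was 484, 149 and 272 CPM in pre-HSC I and 997, 232 and 424 CPM in HE, so it was highest in replicate 1 of each group. The list's median log2 difference was -1.31, and 0.59 without HE replicate 1. Of 12 cardiac markers 1 rose and 1 fell, with a summed level of 23.9 to 44.8 CPM in pre-HSC I and 30.9 to 186 CPM in HE, and both calls were lost without some single libraries (adjusted p up to 0.0904 for Ryr2 and 0.084 for Myl7). Neural and neural crest markers summed to 117 to 132 CPM in pre-HSC I and 485 to 644 CPM in HE, with no edgeR call among 7 tested, 1 by DESeq2, 1 by limma voom and 1 unadjusted p under 0.05, and with 5 of the list's 15 genes at 0 in all 6 libraries. Stmn2, a neuronal microtubule regulator gene, made up most of that sum, at 116, 95.6 and 73.2 CPM in pre-HSC I and 445, 430 and 577 CPM in HE (edgeR adjusted p = 0.0597). Mesonephros markers summed to 45.2 to 57.5 CPM in pre-HSC I and 101 to 163 CPM in HE, with 1 fall, Gata3, among 7 tested, a call lost without HE replicate 1 or any pre-HSC I library. Endoderm and epithelium markers summed to 53.9 to 79.2 CPM in pre-HSC I and 28.1 to 72.1 CPM in HE with no edgeR call among 11, where limma voom called 1, DESeq2 none and 1 unadjusted p was under 0.05. Mast cell and basophil markers summed to 1.3 to 3.3 CPM in pre-HSC I and at most 0.4 CPM in HE, with a call for Cpa3 that was lost without any one of the 6 libraries. Germ cell markers held the rise of Kit and a fall of Prdm1 among 7 tested, and the Prdm1 call was lost without every library but replicate 1 of pre-HSC I.

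Within E10.5 the pre-HSC I libraries lay between those of HE and pre-HSC II. On the first principal component of the 12 E10.5 libraries, which held 46.4% of the variance, they scored 18.1 to 31.6, against -57.2 to -52.5 for HE, -57.3 to -47.9 for endothelial cells (EC) and 79.5 to 85.2 for pre-HSC II. The levels of named genes in these populations are a description without a test. Ptprc averaged 100 ± 34.4 CPM in pre-HSC II, 11.4 ± 5.06 CPM in pre-HSC I, 0.707 ± 0.793 CPM in HE and 0.0839 ± 0.110 CPM in EC (SD, n = 3 each). Runx1 averaged 249 ± 59.5 CPM in pre-HSC II and 225 ± 50.9 CPM in pre-HSC I, within their spread, then 45.0 ± 6.61 CPM in HE and 2.17 ± 0.351 CPM in EC.

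Of these 4 populations, HE had the highest mean for all 27 genes of the arterial and Notch list, where it did for 28% of all genes tested. That list was chosen with earlier results of these data known, so its share is a description only. Tmem100, which is not on that list, averaged 2.37 ± 1.29 CPM in pre-HSC II, 106 ± 16.7 CPM in pre-HSC I, 792 ± 90.4 CPM in HE and 55.1 ± 24.5 CPM in EC. Gja4 averaged 13.8 ± 11 CPM in pre-HSC II, 356 ± 93.6 CPM in pre-HSC I, 1639 ± 206 CPM in HE and 167 ± 53.1 CPM in EC. Both genes had a level in pre-HSC I between those of HE and pre-HSC II and above that of EC. Gfi1 had its highest mean in pre-HSC I, at 20.2 ± 5.32 CPM in pre-HSC II, 53.4 ± 20.2 CPM in pre-HSC I, 12 ± 4.93 CPM in HE and 0.0287 ± 0.0496 CPM in EC. In no pre-HSC II library did Gfi1 reach the lowest pre-HSC I library, at 33.2 CPM. Mecom averaged 54.2 ± 9.49 CPM in pre-HSC II, 194 ± 30.4 CPM in pre-HSC I, 365 ± 105 CPM in HE and 80.1 ± 43.0 CPM in EC.

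**Figure D4:**
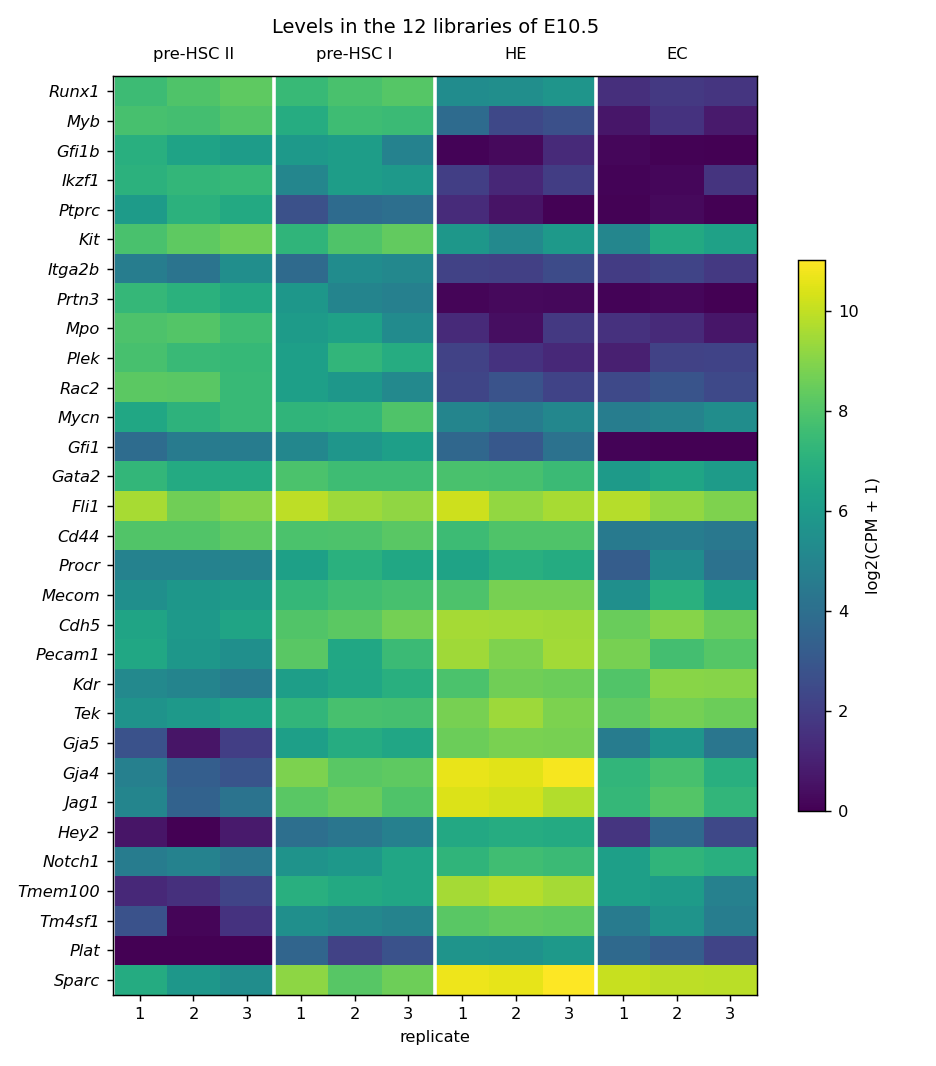
Level of 31 named genes, as log2(CPM + 1), in the 3 libraries each of pre-HSC II, pre-HSC I, HE and EC at E10.5, one column per library. Blood genes at the top darken from pre-HSC II and pre-HSC I to HE and EC, while Gja4, Jag1, Hey2, Tmem100 and Tm4sf1 are brightest in HE and intermediate in pre-HSC I.

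The blood step a day earlier, pro-HSC/HPC against HE at E9.5, served as the comparison for what differed at E10.5. The E9.5 libraries, 3 of pro-HSC/HPC and 3 of HE, came from tissue labelled PAS+VU of embryos of the same genotype, and none is shared with E10.5. Day, tissue label and blood population changed together between the steps, and their separate parts were not tested. Hemoglobin reads made up 1.11% and 0.422% of pro-HSC/HPC replicates 2 and 3, and at most 0.00245% of the other libraries of the E9.5 step. edgeR called 100 genes in the E9.5 step, 0.656% of those tested. The difference between the steps was called for 11 genes, 0.0722%, of which 5, 0.0328%, had a higher and 6, 0.0394%, a lower log2 difference at E10.5, and 1544 genes had an unadjusted p under 0.05. This count was between 3 and 61 when 1 of the 12 libraries was left out, with 61 without replicate 1 of E10.5 pre-HSC I, 41 without replicate 1 of E10.5 HE, and 3 to 6 without any other. Runx1 did not pass the test of the difference: its log2 difference was 2.32 ± 0.35 at E10.5 and 2.86 ± 0.36 at E9.5.

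Ptpn7, the gene of a tyrosine phosphatase of blood cells, differed between the steps with one of the smallest adjusted p. At E10.5 it had 26.2, 28.3 and 21.4 CPM in pre-HSC I, against 1.01, 1.47 and 0.483 CPM in HE. At E9.5 it had 7.04, 7.34 and 7.84 CPM in pro-HSC/HPC, against 16.4, 13.1 and 6.61 CPM in HE, where the groups overlapped. The log2 differences of 4.68 ± 0.60 at E10.5 and -0.70 ± 0.51 at E9.5 differed by 5.38 ± 0.77 (edgeR adjusted p = 0.00199). Hk2 had 109, 98.2 and 69.4 CPM in pro-HSC/HPC at E9.5, against 136, 145 and 94.8 CPM in HE, so that its E9.5 libraries overlapped and HE at E9.5 lay above HE at E10.5. The difference of its steps was 2.54 ± 0.37 (adjusted p = 0.00199). Samsn1, the gene of an adaptor of blood cells, had 92.1, 102 and 75.1 CPM in pre-HSC I and 17.3, 9.93 and 6.32 CPM in HE at E10.5, and 14.4, 60.8 and 28.1 CPM in pro-HSC/HPC and 40.6, 65.8 and 41.4 CPM in HE at E9.5 (difference 3.52 ± 0.55, adjusted p = 0.00412). These 3 genes kept the call under all 22 alternatives run. Cald1 had 247, 195 and 247 CPM in pro-HSC/HPC at E9.5, against 330, 339 and 355 CPM in HE, a log2 difference of -0.57 ± 0.23 there beside -2.18 ± 0.24 at E10.5. Gja4, which differed by -2.21 ± 0.36 at E10.5 and 0.10 ± 0.35 at E9.5, missed the threshold for the difference with an adjusted p of 0.0736.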

How the data were processed

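RNA of 100 sorted cells per library was turned into libraries with a SMARTer Ultra Low Input RNA kit according to the labels. That kit does not mark strand, so reads of overlapping and antisense genes cannot be told apart. The authors deposited raw counts per gene on mm9, and the submitters' processing notes name TopHat, SAMtools, Subread and featureCounts 1.6.2, with the handling of multiply mapped reads not given in the sources used here. Of 24015 genes, 15238 passed edgeR's filterByExpr (minimum count 10) and were tested with edgeR 4.0.16 in R 4.3.3, by glmQLFit and glmQLFTest with 1 coefficient per population over all 28 libraries, TMM scaling and Benjamini-Hochberg adjustment. CPM are TMM-scaled. The common biological coefficient of variation was 0.563. Alternatives were DESeq2 1.42.0, limma 3.58.1 (voom with quality weights), other scalings and filters, the replicate block, a fit of the compared libraries alone, and leaving out each library. The code was tested on simulated counts.

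Genes named were the 15 largest rises and 15 largest falls (called, at least 10 CPM in the higher group, no overlap) and a panel of 36 genes. Up to 4 members of each list with the smallest p, and the 8 smallest p for the difference between the steps, were named too. The members, lists and panel were chosen with earlier results of these data known. Promoters were RefSeq GRCm38.p6 windows of 250 bases, matched for 11907 genes. Some items are not reported here.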

Additional observations from a re-analysis of the deposited data

Results flagged for a closer look

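The following genes were singled out because their change at the blood step differed between E10.5 (pre-HSC I minus HE) and E9.5 (pro-HSC/HPC minus HE) in a test of the difference itself by edgeR. The log2 difference of the steps, E10.5 minus E9.5, was 5.38 for Ptpn7, 2.54 for Hk2 and 3.52 for Samsn1, and these kept the call under all 22 alternatives. It was 2.02 for Gmfg, which kept the call under 14 of the 22, and 3.13 for Slc7a5, the gene of a large neutral amino acid transporter, which kept it under 10. Lower values at E10.5 were -1.50 for Anxa6, the gene of a membrane-binding annexin, -1.81 for St6galnac3, a sialyltransferase gene, and -1.61 for Cald1, called under 13, 12 and 10 of the 22.

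Serpina3g, a serine protease inhibitor gene, had the value -7.93, called under 16 of the 22 alternatives. It had 29.8, 26.7 and 14.7 CPM in pre-HSC I against 4.36, 10.1 and 18.5 CPM in HE at E10.5, which overlapped. At E9.5 it had 3.00, 2.25 and 3.34 CPM in pro-HSC/HPC and no count in the 3 HE libraries, so the fitted size depends on the prior count and is no measure of the fold. Reads of Serpina3g may be shared with related genes of its cluster. St6galnac3 had 26.4, 22.2 and 26.6 CPM in pre-HSC I against 68.3, 102 and 91.6 CPM in HE at E10.5, and 40.1, 47.8 and 46.7 CPM in pro-HSC/HPC against 48.8, 43.6 and 41.5 CPM in HE at E9.5.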

How the results depend on the processing

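The 1049 calls of pre-HSC I against HE became 1580 by DESeq2 and 2180 by limma voom, which held 1035 and 1012 of the 1049. Leaving out 1 library gave 512 to 1091 calls; all 6 such runs tested more genes, 15763 to 15835, since the filter then needs fewer libraries. The replicate block within embryonic day gave 2327 calls, 1034 of them shared, and 1874 in the fit of the compared libraries alone. Same-numbered libraries deviated together with correlations of 0.266, 0.158 and 0.0853, against -0.233 to 0.119 for libraries of different numbers. Replicate 3 of pre-HSC I did not correlate best with its own number. Since nothing ties the numbers to litters, they were not taken as pairs in the main test, and a shared origin was not tested. The other scalings, filters and the 2-fold minimum gave 878 to 1197 calls. The compared libraries alone gave 993 calls among 12995 genes tested, and these held only 737 of the 1049. Upper-quartile scaling split the calls into 525 higher and 525 lower. The difference between the steps was called for 11 genes, for 197 by DESeq2, 511 by limma voom, 30 with no filter, 47 with at least 10 CPM in 3 libraries, 527 with the replicate block, 81 in the compared libraries alone, 569 there with the replicate block, and 3 to 61 without 1 library. With the replicate block 3 of 39 oxidative phosphorylation and 11 of 42 cytosolic ribosomal protein genes were called. So were 27 of 35 ribosome biogenesis and MYC genes and 28 of 34 DNA replication genes. None of the 167 named genes called had another direction under any alternative run, and 110 kept the call in every run without 1 library. Of the 63 named genes not called, 6 did not keep 1 direction throughout, Gata2, Fli1, Erg and Procr among them, and 42 were called under at least 1 alternative, Spi1 and Meis1 under 7 of 16, Spn under 6 and Hlf under 5. The causes of these changes were not tested. A count of 0 allowed up to 0.127 to 0.151 CPM in pre-HSC I and 0.108 to 0.147 CPM in HE, and lower levels were not detectable at this depth.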

Other observations

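In the heat shock and unfolded protein list 5 of 24 genes tested fell, Hspa5, Hsp90b1, Xbp1, Pdia4 and Pdia6, and 1 rose. Calls made up 25% of the list, against 6.88% over all genes, and the median log2 difference was -0.21. Hspa5, the gene of the chaperone BiP, had 753, 449 and 441 CPM in pre-HSC I, against 1265, 948 and 1095 CPM in HE (log2 difference -1.01 ± 0.22, edgeR adjusted p = 0.0043). The groups did not overlap. The rise was Hsp90aa1, the gene of the inducible cytosolic HSP90, at 1291 ± 150 CPM in pre-HSC I and 678 ± 83 CPM in HE. The falls numbered 2 without HE replicate 3 or replicate 2 of pre-HSC I and 3 without its replicate 3.

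The list of imprinted and embryonic RNA-binding genes had 6 falls and no rise among 21 tested, 28.6% of the list. Its median log2 difference was -0.66. The falls were Mest, Peg3, Peg10, Plagl1, Grb10 and Ndn, all known as imprinted genes. Peg3, a paternally expressed zinc finger gene, had 50.9, 23.1 and 38.1 CPM in pre-HSC I, against 79.5, 122 and 112 CPM in HE (edgeR adjusted p = 0.00277), and Plagl1, the hub of an imprinted gene network, averaged 155 ± 27.8 CPM in pre-HSC I and 383 ± 20.5 CPM in HE. The count was 3 without HE replicate 3 and 2 without replicate 2 of pre-HSC I. Among 20 AP-1 and immediate early genes 4 fell, 20% of the list. The AP-1 falls numbered 1 without HE replicate 3 and 2 without replicate 2 or 3 of pre-HSC I. Among 30 Hox genes 3 fell, 10% of the list, against the 6.88% called over all genes. The Hox falls numbered 1 without HE replicate 3 or replicate 1 of pre-HSC I and none without its replicate 2 or 3. None of 18 apoptosis and survival genes was called by edgeR, 3 had an unadjusted p under 0.05, and DESeq2 and limma voom called 1 each.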
